A study of Drosophila melanogaster with 12 samples.

Results

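The yolk protein genes Yp1, Yp2 and Yp3 and 4 other genes known for sex-biased expression in the fly head, fit, Obp99b, Cyp4d21 and sxe2, were followed in the heads of male Drosophila melanogaster after pentylenetetrazol (PTZ) was withdrawn. PTZ, a blocker of GABA-A receptors, causes convulsions. The 7 genes were taken by name from the 6793 genes named on the arrays, and they occupy 18 of 27648 spots. Each gene has 1 pair of twin spots, read here as 1 cDNA clone, except Obp99b and Cyp4d21, which have 2 pairs each, read as 2 clones. Clones were inferred from the spot numbers, and whether the 2 pairs of a gene hold different clones was not checked. Unmated Oregon-R wild-type males, 3 to 4 days old at the start and 30 to a vial, received PTZ in their food at 8 mg/ml for 7 days and then normal food. The withdrawn groups are heads taken at day 8, day 10 and day 14 of the experiment, after 1, 3 and 7 days of withdrawal. The untreated heads they were set against came from males on normal food throughout, taken on the same days, and both were pools of sieved heads. The question, as the title puts it, is how gene expression in the head changes step by step over withdrawal.

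Yolk proteins are secreted by the fat body and the ovarian follicle cells of females and are taken up by the growing egg. Their genes are switched on by the female form of the transcription factor Doublesex and held down by its male form, and they also answer to hormones and to feeding. Fat cells lie in the head too, and they are the main site of the sex-biased head genes. There fit encodes a secreted protein of females that responds to dietary protein. Obp99b (also called tsx, an odorant-binding protein), Cyp4d21 (also sxe1, a cytochrome P450) and sxe2 (a predicted lipase) are known there as male genes. The Yp1 and Yp2 genes are neighbours on the X chromosome, which also carries Yp3. The genes fit, Obp99b and sxe2 lie on chromosome arm 3R and Cyp4d21 lies on 2L.

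Every value is a log2 ratio of PTZ-withdrawn over untreated heads from 1 array, after the median of that array was set to 0, so 0 is the typical gene on that array. A ratio gives no level, so the head tissue could not be checked by the level of its markers, and fewer cells of a type cannot be told apart from less RNA per cell. Each day had 4 arrays, and they held values for 15057 to 18354 spots at day 10, 4310 to 19807 at day 14 and 2316 to 7454 at day 8. The 4 columns of day 8 were identical wherever they overlapped (2032 to 4790 spots for each pair, largest difference 0.0) and were counted as 1 sample, so day 8 has no replicate and no test. Twin spots over the whole array were noisier at day 8. The SD of their differences was 0.59 to 0.76 there and 0.25 to 0.44 on days 10 and 14. Their median gap was alike, at 0.14 to 0.17 and 0.12 to 0.20. With so few arrays no mean is precise. The sign is taken from the channel labels, which put the withdrawn heads in Cy5 on all 12 arrays. It is not settled, because the series text says that the dyes of 2 arrays in 4 were swapped without saying which, and for day 10 replicates 1, 2 and 3 the text on labelling gives Cy3 instead. On a swapped array the sign of all 7 genes would turn together.

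None of the 7 genes passed the test of a day mean. At day 10 all 7 were tested and 0 were called by limma at an adjusted p under 0.05, as were 0.0% of the 4661 genes tested. An unadjusted p under 0.05 was reached by 1 of the 7, Yp2, against 13.2% of all genes. At day 14 the 4 genes Yp1, Yp3, Obp99b and Cyp4d21 had the 3 arrays that a test needs, and 0 were called, nor did any reach an unadjusted p under 0.05 (0.0% and 6.64% of 3010 genes). Over the 7 genes the median of the day 10 means was 0.33, and over all genes tested it was 0.01. Day 14 minus day 10 was tested for the same 4 genes and called 0, with 0.0% of 2385 genes called and 7.21% at an unadjusted p under 0.05. Several of the 7 genes differed widely from array to array, as their values show.

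**Figure D1:**
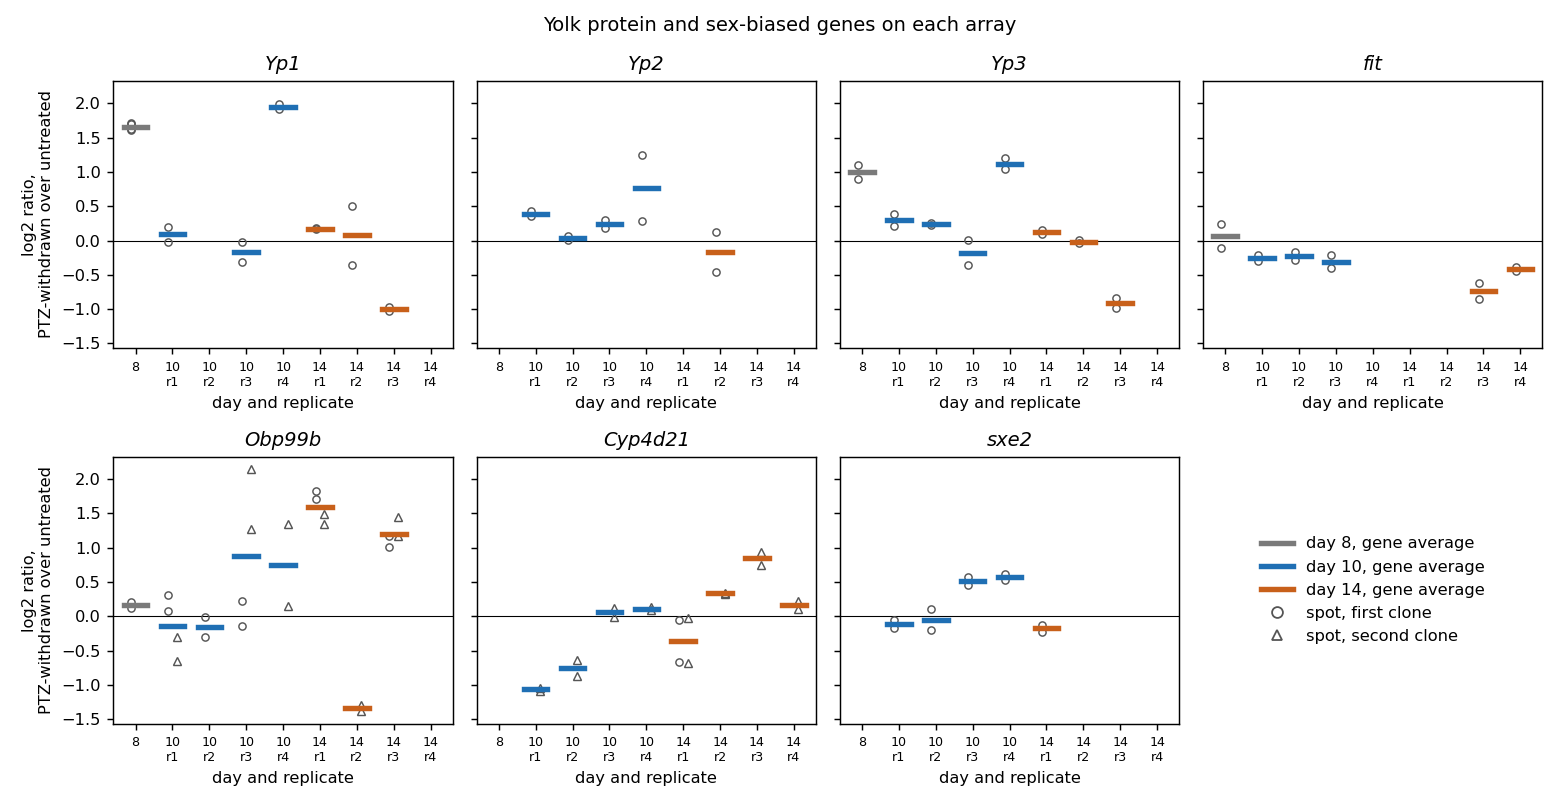
Log2 ratio of PTZ-withdrawn over untreated heads for each of the 7 genes (panels) on the day 8 sample and on replicates r1 to r4 of days 10 and 14; open symbols are single spots, circles for the first clone and triangles for the second, and bars are the average of the spots on that array. Yp1 and Yp3 stand high at day 8 and in day 10 replicate 4 and low in day 14 replicate 3, fit lies below 0 on all 5 arrays of days 10 and 14 that measured it, and Obp99b runs from -1.34 to 1.59.

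Yp1 had the widest range of the yolk genes. Its day 8 ratio was 1.66, a fold of 3.16, and it ranked 8 from the top among 2132 genes with a day 8 value, of which 0.704% exceeded a log2 ratio of 1 and 3.52% lay under -1. At day 10 its ratio was 0.09 in replicate 1, -0.17 in replicate 3 and 1.95 in replicate 4, with no value in replicate 2. At day 14 it was 0.17, 0.08 and -0.995 in replicates 1, 2 and 3. Day 10 replicate 4 and the day 8 sample thus stood high and day 14 replicate 3 low, while the other 4 arrays lay near 0, and the 2 days overlapped. The mean was 0.62 ± 1.16 at day 10 (SD, n = 3, adjusted p = 0.489 in limma) and -0.25 ± 0.65 at day 14 (n = 3, adjusted p = 0.928). Without replicate 4 the day 10 mean was -0.04, and without replicate 3 the day 14 mean was 0.13, so single arrays set both signs.

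Yp3 followed the same arrays. It stood at 1.00 in the day 8 sample, where it ranked 16 from the top. At day 10 its ratios in replicates 1 to 4 were 0.30, 0.24, -0.18 and 1.12, and at day 14 they were 0.12, -0.02 and -0.91 in replicates 1, 2 and 3. Replicate 4 was again the highest of day 10 and replicate 3 the lowest of day 14. The means were 0.37 ± 0.54 at day 10 (SD, n = 4, adjusted p = 0.465 in limma) and -0.27 ± 0.56 at day 14 (n = 3, adjusted p = 0.849). Without day 14 replicate 3 the day 14 mean was 0.05.

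Yp2 was above 0 on all 4 arrays of day 10, with ratios of 0.39, 0.04, 0.24 and 0.77 in replicates 1 to 4. Replicate 4 was the highest here too, but its twin spots disagreed, at 1.25 and 0.29. Of all genes tested at day 10, 12.2% were above 0 on every array that measured them and 13.1% were below 0 on every one. Both shares also count genes with 3 arrays, which keep 1 sign more easily than a gene with 4. With replicates 3 and 4 turned, Yp2 lay above 0 on 2 arrays and below 0 on 2, and its mean was -0.14. The mean was 0.36 ± 0.31 (SD, n = 4), with a 95% interval of 0.05 to 0.67, an unadjusted p of 0.0279 and an adjusted p of 0.312 in limma. At day 14 only replicate 2 measured it, at -0.17, and day 8 gave no value.

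The gene fit, the other female-biased gene, had the smallest SD of the 7 at day 10. Its ratio there was -0.25 in replicate 1, -0.23 in replicate 2 and -0.31 in replicate 3. At day 14 it was -0.74 in replicate 3 and -0.42 in replicate 4. All 5 arrays lay below 0, as did every array of 3.53% of the 4414 genes measured on at least 5 arrays of the 2 days (3.31% lay above 0 on every array), and the day 8 sample stood at 0.06. These shares also count genes with more than 5 arrays, which keep 1 sign less easily. They can therefore make the 5 arrays of fit look rarer than a like comparison would. With day 10 replicates 1, 2 and 3 turned, as the text on labelling would have it, the 3 arrays of day 10 lay above 0. In that setting 6.31% of the 4661 genes tested at day 10 lay above 0 on every array that measured them. Genes with 4 arrays count there too, and they keep 1 sign less easily than a gene with 3. As labelled, the day 10 mean of fit was -0.26 ± 0.04 (SD, n = 3, adjusted p = 0.391 in limma) with a 95% interval of -0.54 to 0.02. Its limma SE, 0.12, is wider than the spread of the 3 arrays because the fit shares its estimate of the spread among genes and days. The day 14 mean of -0.58 ± 0.22 (n = 2) was not tested. Day 10 replicate 4, the highest array of Yp1 and Yp3, had no value for fit, and day 14 replicate 3 was the lowest array for all 3 genes.

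**Figure D2:**
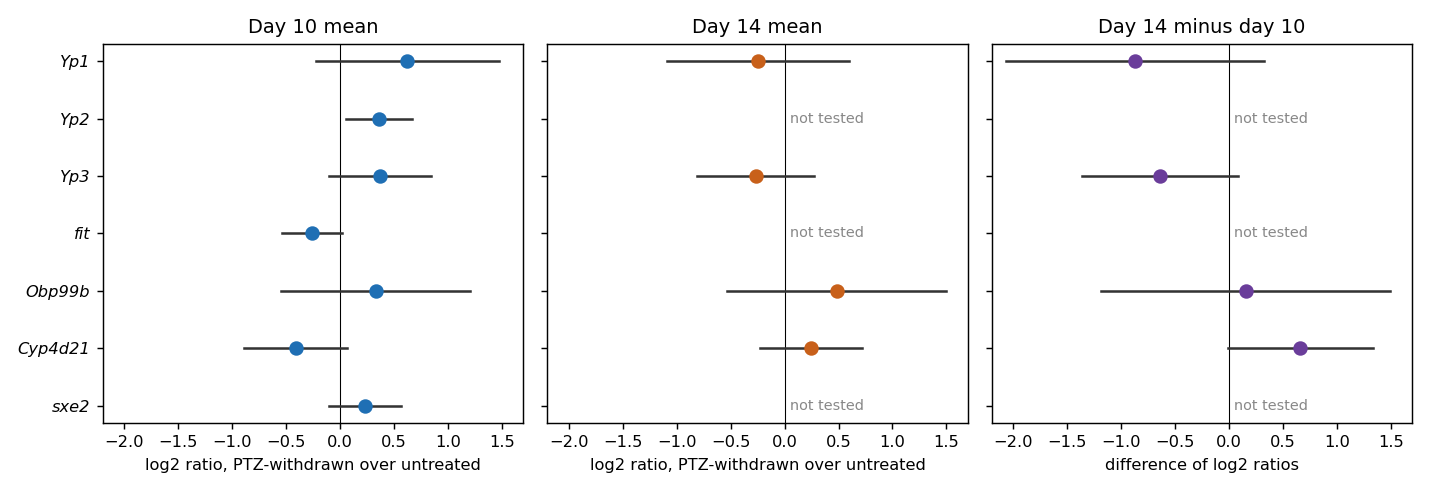
Mean log2 ratio at day 10 and at day 14 and the difference of the 2 days (panels) for each gene, with the 95% interval from limma as a line; genes with fewer than 3 arrays on a day are marked as not tested. The interval of Yp2 at day 10 (0.05 to 0.67) is the only one that does not reach 0, before adjustment for the genes tested.

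Among the male-biased genes, Obp99b had the widest range. At day 10 its ratios were -0.14, -0.16, 0.87 and 0.74 in replicates 1 to 4. At day 14 they were 1.59 in replicate 1, -1.34 in replicate 2 and 1.19 in replicate 3, and the day 8 sample stood at 0.17. Replicate 2 of day 14 was thus a fold of 0.39 and replicates 1 and 3 were folds of 3.02 and 2.29. The means were 0.33 ± 0.55 at day 10 (SD, n = 4, adjusted p = 0.774 in limma) and 0.48 ± 1.59 at day 14 (n = 3, adjusted p = 0.858). Without replicate 2 the day 14 mean was 1.39, and without replicate 1 it was -0.07.

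The 2 clones of Obp99b agreed on some arrays and not on others. At day 14 the first clone stood at 1.77 and the second at 1.42 in replicate 1, and at 1.08 and 1.31 in replicate 3. In day 10 replicate 3 the first clone stood at 0.04 and the second at 1.71, and in replicate 1 they stood at 0.20 and -0.48. The low value of day 14 replicate 2 and the value of day 10 replicate 4 came from the second clone alone, and in day 10 replicate 4 its twin spots were 1.19 apart. The day 10 mean of Obp99b therefore depends on which clone is read.

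Cyp4d21 was measured on all 8 arrays of days 10 and 14. At day 10 its ratios were -1.07, -0.75, 0.06 and 0.11 in replicates 1 to 4, and at day 14 they were -0.36, 0.33, 0.84 and 0.17. The 2 lowest values were those of day 10 replicates 1 and 2, and the days overlapped. The mean was -0.41 ± 0.59 at day 10 (SD, n = 4, adjusted p = 0.428 in limma) and 0.25 ± 0.50 at day 14 (n = 4, adjusted p = 0.831). All arrays but day 14 replicate 1 rest on the second clone alone. On that array both clones averaged -0.36, and the twin spots were 0.62 and 0.66 apart.

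The predicted lipase gene sxe2 had 4 arrays at day 10, at -0.11, -0.05, 0.51 and 0.57 in replicates 1 to 4. It had 1 array at day 14, replicate 1, at -0.17. Replicates 3 and 4 stood above replicates 1 and 2 by more than the twin spots were apart, which was 0.31 at most at day 10. The day 10 mean was 0.23 ± 0.36 (SD, n = 4, adjusted p = 0.529 in limma).

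At day 10 the averages of Obp99b, Cyp4d21 and sxe2 were all below 0 in replicates 1 and 2 and all above 0 in replicates 3 and 4. This pattern of signs was held by 10.6% of the 3317 genes measured on all 4 arrays of that day. It rests on the signs as labelled, since with replicates 3 and 4 turned all 3 genes lay below 0 on all 4 arrays. In that setting 15.3% of the 4661 genes tested at day 10 lay below 0 on every array that measured them. That share also counts genes with 3 arrays, which keep 1 sign more easily than genes with 4, as these 3 have. The pattern also rests on the averages. The first clone of Obp99b stood at 0.20 in replicate 1. Less the median of the neighbouring spots, sxe2 stood at 0.28 and 0.09 in replicates 1 and 2, Cyp4d21 at -0.10 in replicate 4, and the first clone of Obp99b at 0.003 in replicate 2, so none of the 3 genes kept the pattern in all its clones. The yolk genes did not follow it, since Yp2 was above 0 in all 4 replicates and Yp3 in replicates 1, 2 and 4. Over all shared genes, which are not independent replicates, the same pairs of arrays correlated, with an r of 0.501 for the first pair and 0.554 for the second, against -0.07 to 0.03 for arrays of different pairs. The testis markers, none of them one of the 7 genes, differed along the same split. Their medians were 0.06 and 0.24 in replicates 1 and 2 (5 and 6 genes) and 0.66 and 0.59 in replicates 3 and 4 (6 genes each). The odorant-binding and P450 family 4 lists, which include Obp99b and Cyp4d21, differed likewise. Odorant-binding medians were -0.03, -0.10, 0.26 and 0.17 in replicates 1 to 4, and P450 medians were -0.18, -0.16, 0.05 and 0.18. The lipase medians, -0.05, 0.08, -0.16 and 0.04, did not. Fat body, accessory gland, neuron and nutrient medians were also higher in replicates 3 and 4. Sex determination, hormone and ovary medians were not. The part of these lists in the result was not tested.

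Differences between the 2 days were tested themselves. Day 14 minus day 10 was -0.87 for Yp1 (SE 0.53, adjusted p = 0.708 in limma) and -0.64 for Yp3 (SE 0.32, adjusted p = 0.641). Without day 10 replicate 4 the difference of Yp1 was -0.21. For Cyp4d21 it was 0.66 (SE 0.31, adjusted p = 0.641), with a 95% interval of -0.01 to 1.33. Obp99b differed by 0.15 (SE 0.60, adjusted p = 0.946), with an interval of -1.19 to 1.49. None of the 4 differences passed the test, and the arrays of the 2 days overlapped for all 4 genes. Of the 2385 genes, 4.07% had every array of day 14 below those of day 10 and 4.99% had every one above.

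The SD between arrays, with the signs as labelled, was large for most of these genes beside that of all genes. At day 10 the SD of Yp1 was larger than that of 99.8% of the 4661 genes tested, and those of Cyp4d21, Obp99b and Yp3 were larger than that of 93.4%, 92.3% and 91.6%. The SD of sxe2 exceeded 79.3% and that of Yp2 71.6%, while fit, with an SD of 0.04, exceeded 1.2%. The median SD of all genes was 0.22 at day 10 and 0.21 at day 14. At day 14 the SD of Obp99b was the largest of the 3010 genes at 1.59, and Yp1, Yp3 and Cyp4d21 exceeded 98.6%, 97.1% and 95.1% of genes. Some of these SDs rest on 3 arrays and others on 4, so the ranks are a description. They also depend on the dyes. With the signs turned in 4 ways at day 10, the SD of Yp1 exceeded 98.1% to 99.8% of genes, that of Yp3 89.7% to 96.9%, that of Cyp4d21 88.4% to 94.7%, and that of Obp99b 81.6% to 93.5%. For Yp2 these ranks were 81.2% to 90.4% and for sxe2 63.2% to 81.8%. The SD of fit was 0.32, above 72.2% of genes, with replicates 3 and 4 turned. At day 14 Yp1, Yp3 and Cyp4d21 exceeded 94.2% to 97.7%, 93.2% to 96.3% and 87.3% to 96.4% of genes in 3 such ways. With replicates 2 and 4 turned, the 3 arrays of Obp99b at day 14 lay together above 0, with an SD of 0.20 that exceeded 46.4% of genes. In that setting 13.7% of the 3010 genes lay above 0 on every array of day 14 that measured them. Genes with 4 arrays count there too, and they keep 1 sign less easily than a gene with 3.

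**Figure D3:**
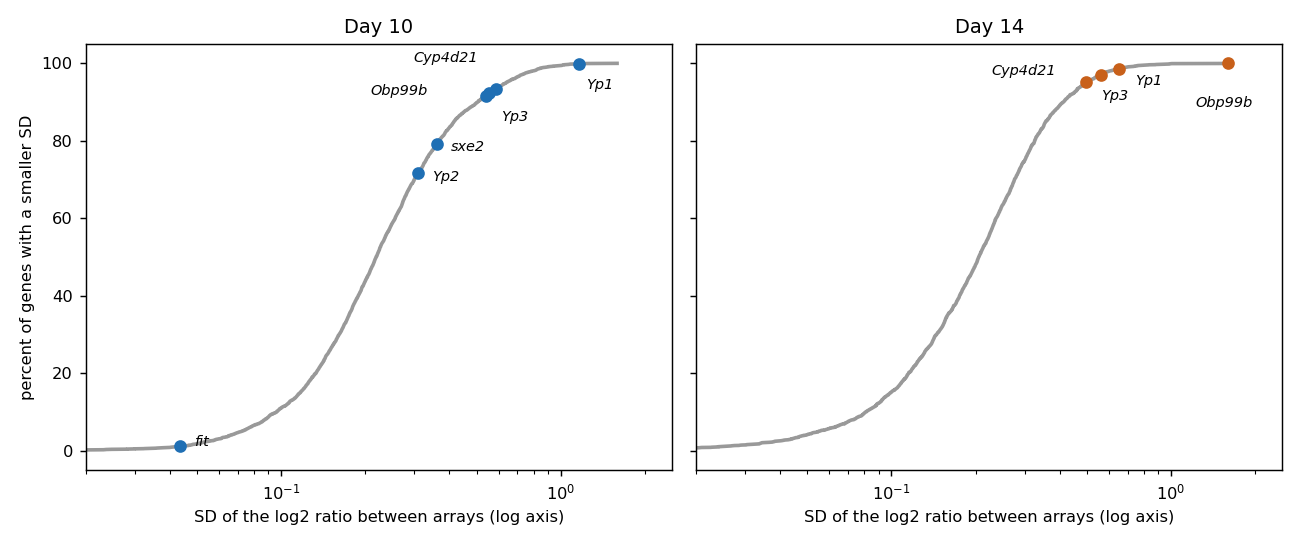
Percent of genes with a smaller SD against the SD of the log2 ratio between arrays (log axis) for all genes tested (grey curve) and for the members (points) at day 10 and at day 14, with the signs as labelled. Yp1 at day 10 and Obp99b at day 14 lie at the far right of the curve and fit at day 10 near its left end.

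Twin spots mostly differed by less than arrays did. Over 53 twin pairs of the 7 genes, with the Yp1 pair of day 8 present in 2 columns, the median gap was 0.14 and the largest was 1.19, and 7 gaps exceeded 0.5. Where Yp1 stood at 1.95 its twin spots were 0.07 apart, and where it stood at -0.995 they were 0.05 apart. For Obp99b the second clone read -1.34 in day 14 replicate 2 with twins 0.09 apart. The Yp1 value near 0 of day 14 replicate 2 had twins 0.86 apart. Twin spots share 1 hybridisation, so they do not replicate the pools of heads.

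Yp1 and Yp3 moved together over the samples. Both were measured in 7 samples, the day 8 sample and 3 arrays each of days 10 and 14, and their ratios had the same sign in 6 of them. Pearson's r was 0.97 (exact permutation test, two-sided, p = 0.000595, adjusted p = 0.00357) and Spearman's rho was 0.96 (exact permutation p = 0.00278, adjusted p = 0.0167). The permutations exchanged samples freely between days, so a difference between days that both genes share also lowers these p-values. Both genes were also chosen with earlier results of these data known. Leaving out the 2 samples farthest from the median of Yp1, day 8 and day 10 replicate 4, gave an r of 0.97. That r still holds day 14 replicate 3, the lowest sample of both genes. Without day 14 replicate 3 alone, r was 0.98. No r was computed with these high and low samples all left out, so how the samples near 0 relate is not shown. A correlation within a day could not be tested on 3 arrays, but the order of the arrays was the same for both genes on each day. Because a swapped array turns both genes, this relation depends little on the dyes: with the signs turned in 4 ways r was 0.96 to 0.99. Yp1 and Yp2 were measured together on 4 arrays only, too few for a correlation.

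The clones of Yp1 and Yp3 lie next to each other on the slide if rows hold 24 spots, and Yp2 lies elsewhere. The median of the neighbouring spots lay between -0.17 and 0.24 for these 2 genes on every array. A median of many spots cannot show an effect limited to these 2 clones. With that local median set to 0 their r was 0.97. Over 1182 gene pairs placed 1 row apart and measured in at least 6 samples, the median r was 0.32, and 3 pairs (0.254%), Yp1 and Yp3 among them, reached the value of Yp1 and Yp3. Why the 2 genes moved together was not tested.

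**Figure D4:**
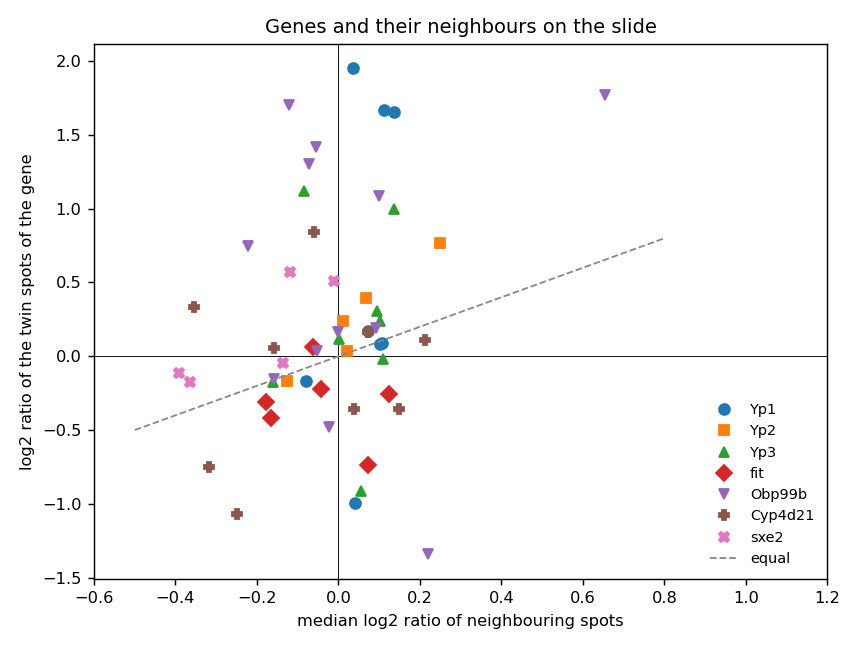
Log2 ratio of each gene's twin spots (vertical axis) against the median log2 ratio of the spots around them on the same array (horizontal axis), 1 point for each clone and array, with the dashed line where both are equal. The high and low points of Yp1 and Yp3 stand over neighbours near 0, while 1 point of Obp99b, day 14 replicate 1, has neighbours at 0.66.

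Of the 6 pairs of members measured together in at least 6 samples, Yp1 and Yp3 alone had an adjusted p under 0.05. Yp3 and Cyp4d21 had opposite signs in 6 of 7 samples, with an r of -0.47 (exact permutation p = 0.271, adjusted p = 0.813) and a rho of -0.57 (exact permutation p = 0.2, adjusted p = 0.6). Without the 2 samples farthest from the median of the first gene, r was -0.89 for this pair, 0.59 for Obp99b and Cyp4d21, -0.05 for Yp3 and Obp99b, -0.36 for Yp1 and Obp99b and -0.35 for Yp1 and Cyp4d21. Over the 4 arrays of day 10 alone, too few to test, Yp3 and Cyp4d21 had an r of 0.23. Obp99b and Cyp4d21 shared their sign in 5 of 7 samples (r = 0.18, exact permutation p = 0.698, adjusted p = 0.815). Obp99b had an r of -0.11 with Yp1 and of -0.17 with Yp3 (exact permutation p = 0.815 and 0.686, adjusted p = 0.815 for both), and Yp1 and Cyp4d21 had an r of -0.24 (exact permutation p = 0.629, adjusted p = 0.815). Cyp4d21 and sxe2, with 5 shared samples, had the same sign in all 5, and fit was opposite in sign to Yp2 in 3 of 3.

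**Figure D5:**
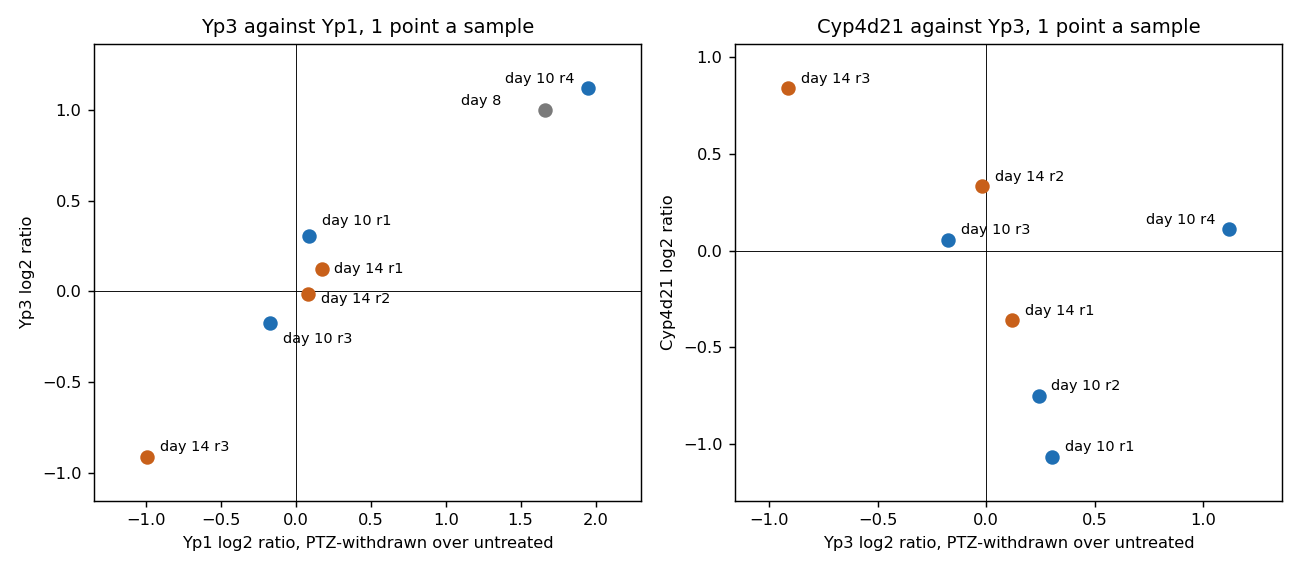
Log2 ratio of Yp3 against Yp1 (left) and of Cyp4d21 against Yp3 (right), PTZ-withdrawn over untreated, 1 point for each sample that measured both genes, coloured by day and marked with the replicate. The 7 points of Yp1 and Yp3 lie along a rising line from day 14 replicate 3 to day 10 replicate 4. Cyp4d21 has the opposite sign to Yp3 in 6 of 7 samples, with an r of -0.47 (exact permutation test, adjusted p = 0.813).

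The genes whose arrays ran most like a member's are given as a description. Among 1784 genes measured on the same 6 arrays as Yp1, the likest were CG18180 (r = 0.98), CG7295 (r = 0.97) and Yp3 (r = 0.97). CG7295 stood at 1.22 in day 10 replicate 4, where Yp1 was highest, and at -0.15 in day 14 replicate 3, where Yp1 was lowest. CG18180 varied little, with an SD of 0.10 over those arrays. For Yp3 they were CG6769 (r = 0.95), CG18180 (r = 0.90) and Lnpk (r = 0.89) of 1526 genes on 7 arrays. For Obp99b they were CG10345 (r = 0.97), the autophagy gene Atg18a (r = 0.97) and CG8289 (r = 0.95) of 1526 genes on 7 arrays. Cyp4d21 was likest to CG1575 (r = 0.92), CG15098 (r = 0.92) and CG13868 (r = 0.90) of 603 genes on 8 arrays. The points share arrays and with them any effect of the slide, and Yp2, fit and sxe2 had too few arrays for such a ranking.

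Genes that act on the 7, or resemble them, gave no call either. The lists held 0 called genes in either direction at day 10, at day 14 or between the days, beside 0.0% of all genes on each. An unadjusted p under 0.05 at day 10 was reached by 13.2% of all genes, by 3 of 11 fat body markers, by 3 of 6 testis markers, by 1 gene each of the sex determination (of 4), nutrient (of 4), odorant-binding (of 18) and P450 (of 13) lists, and by 0 in the others. At day 14 it was reached by 6.64% of all genes, 2 of 8 lipases, 2 of 10 P450 genes and 1 of 18 odorant-binding protein genes. Between the days it was reached by 7.21% of all genes, 2 of 7 fat body markers, 1 of 2 testis markers and 1 of 16 odorant-binding protein genes. Of the sex determination and dosage compensation genes 4 were tested at day 10, with 1 above 0 and a median of -0.13, from tra2, which splices doublesex, at 0.05 (SE 0.18) to msl-3 of the dosage compensation complex at -0.22 (SE 0.09). Hormone and fat body regulators of the yolk genes had 0 of 5 above 0 and a median of -0.10, with the ecdysone receptor gene EcR highest at -0.05 (SE 0.12) and Aef1, a repressor of fat body genes, lowest at -0.17 (SE 0.15). In nutrient and insulin signalling 1 of 4 lay above 0 (median -0.16), from the insulin-like peptide gene Ilp2 at 0.03 (SE 0.12) to AkhR, the receptor of the adipokinetic hormone in fat cells, at -0.30 ± 0.03 (SD, n = 4). Its limma SE was 0.10 and its adjusted p was 0.251.

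Fat body markers other than the yolk genes had 8 of 11 above 0 at day 10 (median 0.19), from the cold-induced gene Fst at 0.58 (SE 0.11, adjusted p = 0.105 in limma) to the lipid droplet gene Lsd-2 at -0.34 (SE 0.14). By array, 11 of 13 markers lay above 0 in day 10 replicate 4 with a median of 0.47, where Yp1 and Yp3 were highest. Replicates 1, 2 and 3 had medians of 0.01, -0.26 and 0.13. In day 14 replicate 3, where the yolk genes were lowest, the median was 0.10 over 9 markers, and in the day 8 sample it was -0.29 over 6, where the yolk genes were high. Their part in the yolk values was not tested. Ovary and eggshell markers had 3 of 4 above 0 at day 10 (median 0.13), from the germ plasm gene osk at 0.26 (SE 0.33) to the oocyte signal gene grk at -0.14 (SE 0.13), and a median of -0.09 over 5 genes in day 10 replicate 4. The lookup of current symbols put Nos, the nitric oxide synthase gene, in this list in place of the planned gene nos. Whether Nos was among the genes measured is not shown, so these counts and medians may include it. Testis markers had 5 of 6 above 0 (median 0.35), from the sperm leucyl aminopeptidase gene S-Lap8 at 1.10 (SE 0.25, adjusted p = 0.166) to the spermatocyte transcription factor gene topi at -0.07 (SE 0.12). Acp32CD, the 1 accessory gland marker tested, stood at 0.17 (SE 0.11). Neuron and photoreceptor markers had 2 of 4 above 0 (median 0.07), from the arrestin gene Arr1 at 0.23 (SE 0.11) to the photoreceptor channel gene trp at -0.05 (SE 0.11).

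Of the relatives of Obp99b, 18 odorant-binding protein genes including Obp99b itself were tested at day 10, with 11 above 0 and a median of 0.04, from Obp59a at 0.64 (SE 0.16, adjusted p = 0.166 in limma) to Obp56h at -0.14 (SE 0.10). Among 13 tested genes of cytochrome P450 family 4, 5 lay above 0 (median -0.08), with Cyp4p2 highest at 0.15 (SE 0.15) and Cyp4d21 itself lowest. The lipase family had 2 of 7 above 0 (median -0.06), from CG5966 at 0.35 (SE 0.25) to Lip1 at -0.15 (SE 0.14).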

How the data were processed

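Two-colour spotted cDNA arrays of fly heads were read from the table of deposited values. The submitters' series text names GenePix Pro 6.0 for quantification and Acuity 4.0 for a normalization based on ratios, and says that spots were filtered on saturation, flags, regression and signal to noise. The deposited values are log2 ratios, with base 2 assumed because neither the labels nor the table header gives it. The deposited medians of the columns lay between -0.309 and 1.588, so each column median was set to 0. Of 27648 spots 15116 carry 1 gene name, and 14894 of these were brought up to date through a RefSeq table. Each gene's value on an array is the mean of its spots there.

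A mean per day was fitted to 5291 genes by lmFit and eBayes of limma 3.58.1 in R 4.3.3. A gene was tested with a value on at least 3 of 4 arrays of a day, and p-values were Benjamini-Hochberg adjusted over all genes tested in a comparison. Day 8 entered as 1 sample. The labels call the replicates biological. Replicate numbers were not taken to pair the arrays, and the labels do not settle it. SD ranks and sign shares under turned signs, and single clones less their neighbours' median, were added after seeing the data. The test was checked on simulated data, but no outcome of that check is given, so no result here rests on it. The main fit takes the arrays of a day as independent, while some arrays of the same day correlated over all shared genes. Whether the test holds for such arrays was not tested.

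The members and gene lists were chosen with earlier results of these data known. The text names the 7 members, the 3 likest genes of each member with at least 6 arrays, and the highest and lowest tested gene of each list at day 10. Genes whose symbol begins with Cyp4 and a further digit were left out of the family 4 list. In the ovary and eggshell list the symbol lookup took Nos in place of nos. Pair correlations over samples used exact permutation tests that exchanged samples across days, Benjamini-Hochberg adjusted over 6 pairs. Neighbouring spots were those within 2 rows and 4 columns of the clone, in blocks of 576 spots, a layout inferred from the spot numbers.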

Additional observations from a re-analysis of the deposited data

Results flagged for a closer look

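In 3 of 38 groups of 4 arrays a single array stood apart from the other 3 by more than Dixon's 95% critical value, which chance gives in about 1 group in 20. CG7295 stood at 1.22 in day 10 replicate 4, with the other 3 arrays between 0.076 and 0.204. It was named for running like Yp1, which was also highest on that array. Acp32CD stood at -0.091 in day 10 replicate 2, with the others between 0.232 and 0.296. Lip1 stood at 0.251 in day 10 replicate 1, with the others between -0.329 and -0.254. None of the 7 members was marked in this way.

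In 2 odorant-binding protein genes every array of day 14 had the opposite sign to every array of day 10, out of 37 named genes examined. The same was true of 51 of the 2385 genes tested on both days (2.14%). Not all of the 37 were tested on both days. These 2 genes were named because their day 10 means were the highest and lowest of their list. That choice favours such a pattern, so the 2 shares cannot be set against each other. Obp59a averaged -0.19 at day 14 (n = 3) and 0.642 at day 10 (n = 4), a difference of -0.832 (adjusted p = 0.641 in limma). Obp56h averaged 0.152 at day 14 (n = 3) and -0.145 at day 10 (n = 4), a difference of 0.296 (adjusted p = 0.641 in limma).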

How the results depend on the processing

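None of the members tested was called under any alternative run, except with the column medians left as deposited, when 4 members were called at day 14 and 3 between the days, as were 3001 of 3010 and 2352 of 2385 genes. The replicate block tested 4 of the 7 members at day 10, leaving out Yp2, fit and sxe2, and the filter on all 4 arrays of a day tested 5 at day 10 and 1 at day 14. The signs of the means follow the dyes and single arrays. With the values as deposited sxe2 at day 10 was -0.0187, Yp1 and Yp3 were 0.99 and 0.97 at day 14 and differed by 0.62 and 0.85 between the days. With day 10 replicates 1, 2 and 3 turned, fit was 0.26 and Cyp4d21 0.47 at day 10, and the day difference of Cyp4d21 was -0.22. With replicates 3 and 4 turned, the day 10 means of Yp1, Yp2, Yp3, Obp99b and sxe2 were -0.56, -0.14, -0.10, -0.48 and -0.31, the day 14 means of Yp1, Yp3, Obp99b and Cyp4d21 were 0.42, 0.34, -0.31 and -0.26, and the differences of Yp1 and Yp3 were 0.98 and 0.44. With replicates 2 and 4 turned, Yp1, Yp2, Yp3 and sxe2 were -0.68, -0.043, -0.31 and -0.0325 at day 10, Cyp4d21 was -0.0045 at day 14, and the differences of Yp1 and Yp3 were 0.38 and 0.0501. With replicates 2 and 3 turned, fit and Obp99b were 0.0942 and -0.0283 at day 10, Yp1, Yp3 and Cyp4d21 were 0.36, 0.35 and -0.34 at day 14, and the differences of Yp3 and Cyp4d21 were 0.01 and -0.28. With a dye term for replicates 2 and 4 the difference of Obp99b was -0.0367, and with the local median of neighbouring spots set to 0 it was -0.13. That last alternative was added once the data had been seen.

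Leaving out 1 array at a time gave day 10 means of -0.041 to 1.02 for Yp1, 0.22 to 0.47 for Yp2, 0.12 to 0.56 for Yp3, -0.28 to -0.24 for fit, 0.15 to 0.49 for Obp99b, -0.59 to -0.20 for Cyp4d21 and 0.12 to 0.34 for sxe2. Day 14 means ran from -0.46 to 0.13 for Yp1, -0.46 to 0.0517 for Yp3, -0.0742 to 1.39 for Obp99b and 0.05 to 0.45 for Cyp4d21. Day differences ran from -1.27 to -0.21 for Yp1, -0.84 to -0.32 for Yp3, -0.40 to 1.07 for Obp99b and 0.44 to 0.86 for Cyp4d21. Over all genes, 0 calls at day 10 became 80 without replicate 1, 14 without replicate 2, 1 without replicate 4 and 3 among genes measured on all 4 arrays. Same-numbered arrays of days 10 and 14 shared deviations with an r of -0.102, 0.304, 0.153 and 0.119. Differently numbered arrays had an r of -0.272 to 0.318. These values do not settle whether the numbers pair the arrays, and the main fit did not pair them. With the replicate number as a block, 2 genes were called at day 10 and Yp1 at day 14 was 0.21. Unadjusted limma p at day 10 was then 0.0113 for Yp1, 0.00981 for Yp3, 0.00913 for Cyp4d21 and 0.238 for Obp99b. Adjusted p was 0.202, 0.196, 0.188 and 0.606. Of 3544 genes, 512 had an unadjusted p under 0.05 in that run. The cause of these shifts was not tested. The depth behind a ratio is unknown, since no intensities were used.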
